A study of Homo sapiens with 12 samples.

Results

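The genes described here are 37 genes of protein folding in the endoplasmic reticulum (ER) and of the unfolded protein response. They were taken by symbol from a list of known pathway members, which was chosen with earlier results of these data known. Of the list, 15 encode chaperones and folding enzymes, 1 a subunit of the translocation channel, 4 components of ER-associated degradation, 5 stress sensors and their factors, and 12 belong to the pathway of the transcription factor ATF4. All 37 were present in both tables of values, which list 13407 and 11504 genes and share 11356. RNA was sequenced from MCF-12A, an immortalised, non-tumour epithelial line derived from human breast. The groups were cells that had received TGFbeta1, a secreted cytokine widely used to drive epithelial-mesenchymal transition, and control cells that had received the vehicle, with 6 libraries in each. The libraries were deposited in 2 separately normalised sets, replicates 1 to 3 of each group in the first and replicates 4 to 6 in the second. No dose or duration of treatment is given in the labels. Whether replicates were separate cultures is not stated either, so the p-values reflect no more than library-to-library spread, which may be technical.

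As background, newly made secretory and membrane proteins enter the ER through the SEC61 channel and are folded there by chaperones and disulphide isomerases. When unfolded proteins accumulate, the membrane sensors IRE1 (encoded by ERN1), ATF6 and PERK (encoded by EIF2AK3) are activated. ATF6 and XBP1, the factor downstream of IRE1, raise ER chaperone genes. PERK slows translation and lets ATF4 be made, and ATF4 raises genes of amino acid supply and stress signalling. ATF4 is also made when other kinases phosphorylate the same translation factor, for instance when amino acids are short.

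Levels are FPKM (fragments divided by transcript length and by the library's mapped fragments), added up over the transcripts of a gene. Library sums of FPKM ran from 291802 to 318270 (first set) and from 338968 to 358433 (second set), and between 10242 and 10518 genes reached 1 FPKM. No counts were used, so the depth behind each value is unknown. The labels were checked with SMAD7, TGFBI and ITGB6, genes that TGFbeta1 is known to raise. In the first set all 3 rose, ITGB6 averaging 83.2 ± 2.27 FPKM in TGFbeta1 libraries and 5.54 ± 0.974 FPKM in controls (SD, n = 3 each). None of these genes passed the test in the second set. ITGB6 averaged 2.52 ± 0.801 FPKM in the libraries labelled TGFbeta1 and 2.45 ± 0.629 FPKM in controls, and TGFBI 87.2 ± 52.3 FPKM in the libraries labelled TGFbeta1 and 212.6 ± 27.2 FPKM in controls (SD, n = 3 each). Without TGFbeta1 replicate 4, TGFBI fell by 1.87 on the log2 scale in the second set (adjusted p = 0.043). Directions in the second set therefore rest on labels that this check did not bear out, and its treated group is called the libraries labelled TGFbeta1.

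All 5 epithelial markers examined (EPCAM, CDH1, KRT5, KRT14 and KRT18) were present. Their summed level was 1603 to 1728 FPKM in TGFbeta1 libraries and 2141 to 2736 FPKM in controls of the first set. The second-set sum was 1549 to 1712 FPKM in the libraries labelled TGFbeta1 and 1452 to 1683 FPKM in controls. Of 5 fibroblast markers, PDGFRB and LUM were in neither table, and the summed level of those listed in the first set (COL1A1 and DCN) was 13.7 to 16.9 FPKM in TGFbeta1 libraries and 1.56 to 1.85 FPKM in controls. The sum of COL1A1, DCN and PDGFRA in the second set was 12.04 to 15.7 FPKM in the libraries labelled TGFbeta1 and 28.6 to 32.6 FPKM in controls. Of 7 leukocyte, endothelial and erythroid markers, PTPRC, CD3E, PECAM1 and VWF were in neither table. The summed level of the 2 listed in each set was 0.562 to 0.779 FPKM in TGFbeta1 libraries and 2.80 to 3.27 FPKM in controls of the first set. The sum in the second set was 8.30 to 10.1 FPKM in the libraries labelled TGFbeta1 and 4.66 to 6.59 FPKM in controls. The 2 listed were CD79A and CD14 in the first set and CD14 and HBB in the second. The sums thus cover different genes, and CD14 made up most of each. The part of these differences in the results that follow was not tested.

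Most ER chaperones rose with TGFbeta1 in the first set, while most genes of the ATF4 pathway had lower values there. Of the 37 genes, 13 passed the test in the first set, where 20.9% of all 10454 genes tested did. These were 10 that rose and 3 that fell, against 9.00% and 11.9% of all genes tested. The call was an adjusted p under 0.05, from limma with Benjamini-Hochberg adjustment over all genes tested. Among the 15 chaperones, 9 rose and 0 fell, with a median log2 change of 0.43. Among the 12 genes of the ATF4 pathway, 1 rose and 3 fell, with a median log2 change of -0.84. The median over all genes tested was -0.06. Since the 37 genes were chosen with earlier results of these data known, these counts and medians are no test of the pathways. Each log2 change is a difference of log2(FPKM + 1) values, so that of a low gene is understated. In bulk RNA, a change in how many cells express a gene and a change in RNA per cell cannot be told apart. With every library scaled to an equal sum, 1164 genes rose and 855 fell in place of 941 and 1245, and the chaperone count stayed at 9 higher and 0 lower.

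In the second set, 0 of the 35 genes tested passed (limma), where 0.321% of all 10579 genes tested passed. An unadjusted limma p under 0.05 was reached by 5, against 11.2% of all genes tested. WFS1 and PHGDH were below the minimum mean of 1 FPKM there. Each was listed there by 1 transcript only, and the transcript that held most of its first-set FPKM was not listed. The chaperones had a median log2 change of 0.04 and the ATF4 pathway of 0.12, against -0.00 over all genes tested. In the authors' deposited table for the second set, 0 of 88 transcripts of these genes had a q-value under 0.05, and 11 had a p-value under 0.05. The matching shares over all deposited transcripts are not given here, so nothing about these genes is read from those counts. The change differed between the sets for 10 of the 37 genes, against 13.6% of the 10571 genes tested for the difference.

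**Figure D1:**
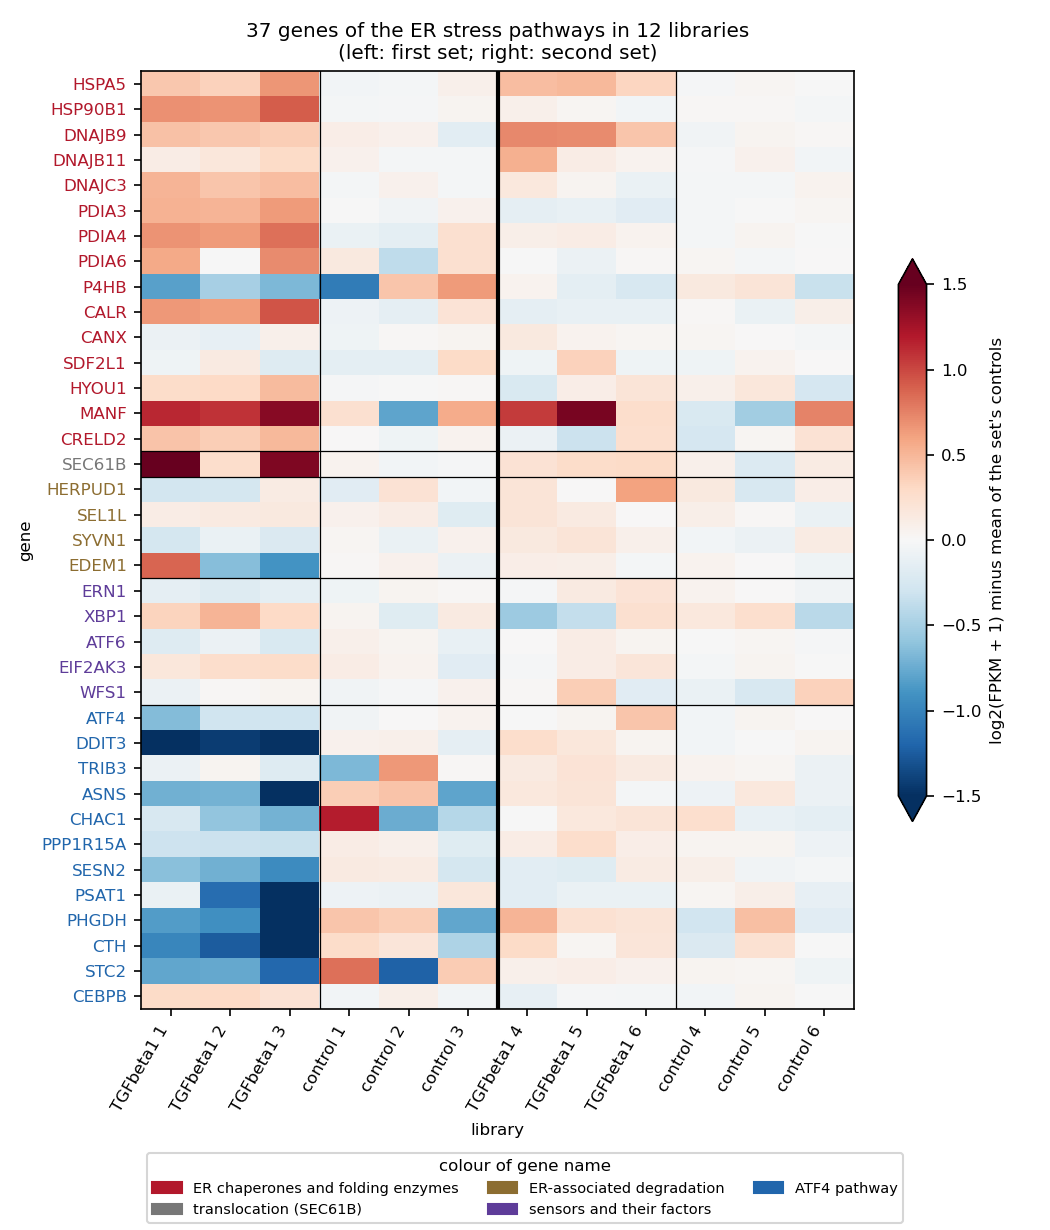
Log2(FPKM + 1) of each of the 37 genes (rows) in each of the 12 libraries (columns), minus the mean of the same set's controls, with TGFbeta1 left of control in each set; the colour scale ends at 1.5 in each direction. Most chaperone rows are red in the 3 TGFbeta1 libraries of the first set and most rows of the ATF4 pathway are blue, and neither block is seen in the second set.

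HSPA5 (BiP, hg19 chr9:127997132-128003609, minus strand) is the central ER chaperone of the HSP70 family and also holds the stress sensors inactive. In the first set it had 165, 157 and 196 FPKM in TGFbeta1 libraries and 121, 121 and 130 FPKM in controls. In the second set it had 158, 160 and 143 FPKM in the libraries labelled TGFbeta1 and 113, 117 and 114 FPKM in controls. All TGFbeta1 libraries lay above all controls in the first set, as did the libraries labelled TGFbeta1 in the second. The ratios of means were 1.39 and 1.34. The log2 change was 0.47 ± 0.098 (SE, adjusted p = 0.0245) in the first set and 0.42 ± 0.059 (SE, adjusted p = 0.0901) in the second, and only the first passed. The first-set change minus the second-set change was 0.05 ± 0.122 (SE, adjusted p = 0.841). The first-set call was lost without TGFbeta1 replicate 1 (adjusted p = 0.0601), control replicate 1 (0.0793) or control replicate 2 (0.0754).

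HSP90B1 (GRP94, hg19 chr12:104323885-104341704, plus strand), the HSP90 of the ER, folds integrins and Toll-like receptors among other clients. It had 304, 301 and 354 FPKM in TGFbeta1 libraries and 185, 186 and 195 FPKM in controls of the first set. Second-set values were 226, 218 and 208 FPKM in the libraries labelled TGFbeta1 and 216, 217 and 209 FPKM in controls. The groups were wholly apart in the first set and intermixed in the second. The log2 change was 0.76 ± 0.079 (SE, adjusted p = 0.00251) in the first set, and it exceeded that of the second set by 0.73 ± 0.099 (SE, adjusted p = 0.000753).

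The J-domain co-chaperones, which deliver clients to HSPA5 and drive its ATPase, are DNAJB9, DNAJB11 and DNAJC3. DNAJB9 (ERdj4), which also represses IRE1, had 8.96, 8.73 and 8.50 FPKM in TGFbeta1 libraries and 6.83, 6.68 and 5.55 FPKM in controls of the first set. Its second-set values were 15.2, 15.0 and 12.1 FPKM in the libraries labelled TGFbeta1 and 8.40, 9.05 and 8.89 FPKM in controls. The groups did not overlap in either set. DNAJB9 rose in the first set (log2 change 0.41 ± 0.095 SE, adjusted p = 0.0345) and did not pass in the second (0.62 ± 0.102 SE, adjusted p = 0.122), and the difference between the sets did not pass either (adjusted p = 0.405). Its first-set call was lost when any library other than control replicate 3 was left out, with adjusted p between 0.0605 and 0.102. DNAJC3 (p58IPK) had 14.6, 13.7 and 14.1 FPKM in TGFbeta1 libraries and 9.78, 10.5 and 9.76 FPKM in controls of the first set, where it rose by a log2 change of 0.46 ± 0.070 (SE, adjusted p = 0.00855). Second-set values of DNAJC3 were 11.6, 10.7 and 9.58 FPKM in the libraries labelled TGFbeta1 and 10.1, 10.1 and 10.8 FPKM in controls, which overlapped. DNAJB11 (ERdj3) averaged 56.6 ± 3.76 FPKM in TGFbeta1 libraries and 49.5 ± 1.81 FPKM in controls of the first set (SD, n = 3 each), did not overlap and did not pass (adjusted p = 0.129).

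HYOU1 (GRP170), the nucleotide exchange factor of HSPA5, had 34.8, 35.3 and 40.1 FPKM in TGFbeta1 libraries and 28.2, 28.5 and 28.9 FPKM in controls of the first set. The groups did not overlap, and HYOU1 rose there (log2 change 0.35 ± 0.077 SE, adjusted p = 0.0283). That call was lost whichever library was left out, with adjusted p between 0.0514 and 0.0852. HYOU1 in the second set had 24.6, 31.2 and 33.5 FPKM in the libraries labelled TGFbeta1 and 30.7, 33.0 and 24.3 FPKM in controls, with overlap. SDF2L1, which works with DNAJB11, averaged 13.8 ± 1.70 FPKM in TGFbeta1 libraries and 14.2 ± 2.80 FPKM in controls of the first set (SD, n = 3 each) and did not pass (adjusted p = 0.894).

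**Figure D2:**
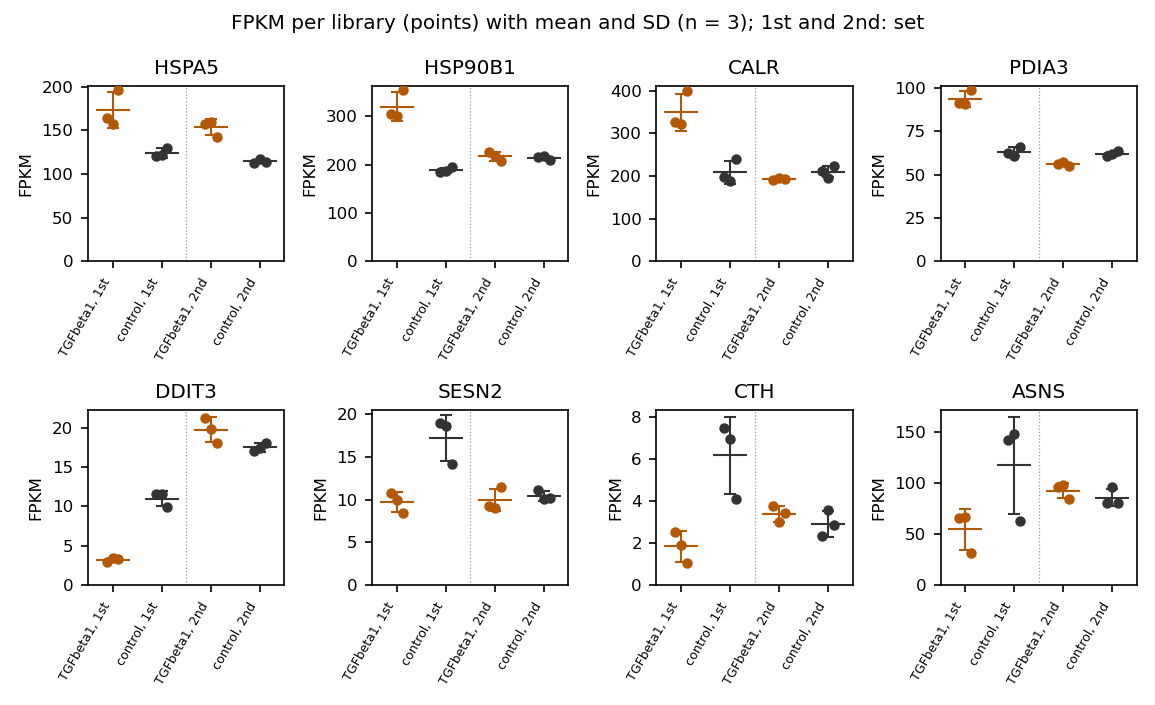
FPKM of 8 genes in each library (points) with the mean and SD of each group (bars, n = 3), TGFbeta1 left of control within each set and the first set left of the dotted line. For HSPA5, all TGFbeta1 points of the first set and all points labelled TGFbeta1 of the second lie above the same set's controls. In the first set the TGFbeta1 points of HSP90B1, CALR and PDIA3 also lie above all controls and those of DDIT3, SESN2 and CTH below.

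The protein disulphide isomerases form and rearrange disulphide bonds, and PDIA3 does so on glycoproteins held by the lectins CALR and CANX. PDIA3 had 91.2, 90.4 and 98.9 FPKM in TGFbeta1 libraries and 62.6, 60.8 and 65.9 FPKM in controls of the first set. Values in the second set were 56.1, 57.4 and 55.1 FPKM in the libraries labelled TGFbeta1 and 60.7, 61.7 and 63.4 FPKM in controls. The groups were apart in both sets, in opposite directions. PDIA3 rose in the first set (log2 change 0.56 ± 0.066 SE, adjusted p = 0.0038) and did not pass in the second (-0.14 ± 0.046 SE, adjusted p = 0.372). The first-set change exceeded the second-set change by 0.70 ± 0.085 (SE, adjusted p = 0.000409).

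PDIA4 (ERp72) had 76.9, 75.5 and 86.0 FPKM in TGFbeta1 libraries and 44.7, 43.2 and 57.0 FPKM in controls of the first set. It rose there by a log2 change of 0.72 ± 0.125 (SE, adjusted p = 0.0139, but 0.0506 without control replicate 1). For PDIA4, second-set libraries labelled TGFbeta1 had 77.1, 78.8 and 75.3 FPKM and controls 71.3, 74.5 and 72.0 FPKM, apart but not past the test (adjusted p = 0.562). CALR (calreticulin) had 326, 321 and 400.0 FPKM in TGFbeta1 libraries and 198, 189 and 239 FPKM in controls of the first set. It rose there by a log2 change of 0.74 ± 0.130 (SE, adjusted p = 0.0141, but 0.0521 without control replicate 1). Second-set values of CALR were 191, 195 and 194 FPKM in the libraries labelled TGFbeta1 and 213, 196 and 223 FPKM in controls, a log2 change of -0.12 ± 0.059 (SE, adjusted p = 0.508). The first-set change of CALR exceeded its second-set change by 0.86 ± 0.151 (SE, adjusted p = 0.00391).

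The membrane-bound lectin CANX (calnexin) did not pass. It averaged 132.4 ± 10.2 FPKM in TGFbeta1 libraries and 136.4 ± 5.03 FPKM in controls of the first set (SD, n = 3 each, adjusted p = 0.711). PDIA6 had 137, 92.1 and 151.5 FPKM in TGFbeta1 libraries and 102, 70.4 and 109 FPKM in controls of the first set, with replicate 2 lowest in each group (adjusted p = 0.285). P4HB (PDIA1), which is also a subunit of collagen prolyl hydroxylase, had 48.6, 61.1 and 53.9 FPKM in TGFbeta1 libraries and 41.1, 116 and 135 FPKM in controls. Control replicate 1 lay below every TGFbeta1 library and the other controls above, and P4HB did not pass (log2 change -0.66 ± 0.455 SE, adjusted p = 0.357). Without that library P4HB fell by 1.19 on the log2 scale (adjusted p = 0.00987), and 4 chaperones rose and 1, P4HB, fell.

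MANF and CRELD2 are ER proteins that cells release when ER calcium falls or stress is induced. CRELD2 had 16.1, 15.4 and 16.7 FPKM in TGFbeta1 libraries and 11.8, 11.1 and 12.2 FPKM in controls of the first set. It rose by a log2 change of 0.43 ± 0.072 (SE, adjusted p = 0.0122) there, and in the second set it had 5.68, 4.68 and 7.39 FPKM in the libraries labelled TGFbeta1 and 4.96, 6.22 and 7.24 FPKM in controls. MANF had 58.0, 55.8 and 67.9 FPKM in TGFbeta1 libraries and 30.7, 14.5 and 38.5 FPKM in controls of the first set. Its groups did not overlap, but the controls were spread widely and MANF did not pass (log2 change 1.19 ± 0.353 SE, adjusted p = 0.0675). It passed without control replicate 2 (0.80, adjusted p = 0.0327) or control replicate 3 (1.47, adjusted p = 0.0468). Second-set values of MANF were 14.5, 19.1 and 7.97 FPKM in the libraries labelled TGFbeta1 and 5.38, 4.21 and 11.5 FPKM in controls, which overlapped, a log2 change of 0.92 ± 0.426 (SE, adjusted p = 0.493). SEC61B, the beta subunit of the translocation channel, had 116, 48.0 and 106 FPKM in TGFbeta1 libraries and 41.3, 38.6 and 39.4 FPKM in controls of the first set. TGFbeta1 replicate 2 lay close to the controls. SEC61B did not pass with it (log2 change 1.06 ± 0.340 SE, adjusted p = 0.0824) and passed without it (1.46, adjusted p = 0.00198). SEC61B in the second set had 82.5, 85.9 and 86.6 FPKM in the libraries labelled TGFbeta1 and 74.8, 61.5 and 77.3 FPKM in controls, apart but not past the test (log2 change 0.26 ± 0.095 SE, adjusted p = 0.402).

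In the first set all TGFbeta1 libraries lay above all controls for 11 of the 15 chaperones, as they did for 18.2% of all genes tested, and lay below them for 0. In the second set they lay above for 4 (9.71% of all genes tested) and below for 2 (9.62%). Counts of chaperones that rose in the first set fell to 6 without TGFbeta1 replicate 1 and to 4 without control replicate 1. HSP90B1, DNAJC3, PDIA3 and CRELD2 kept their call with each of the 6 libraries left out.

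**Figure D3:**
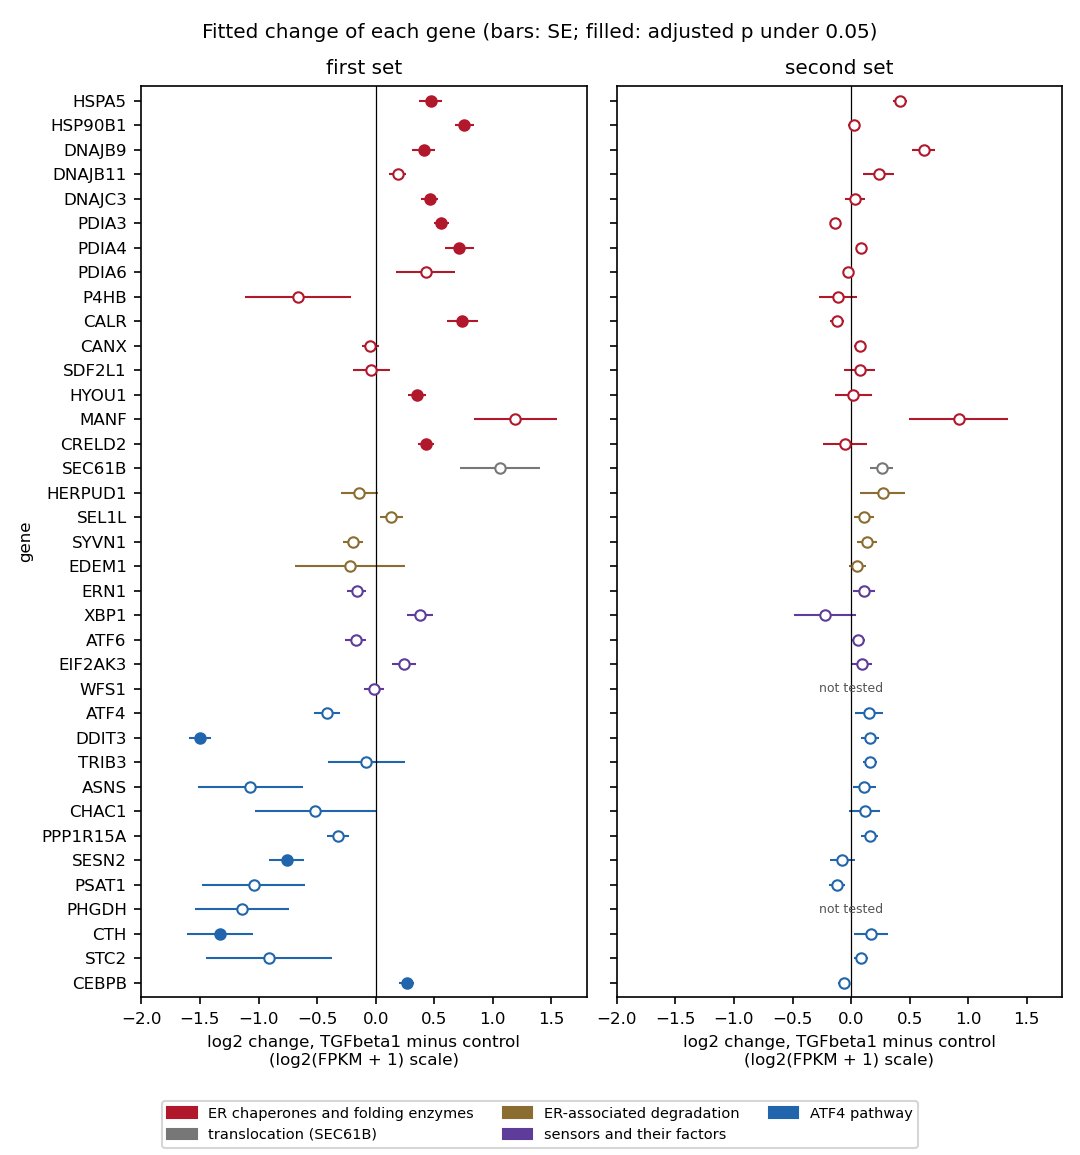
Fitted log2 change, TGFbeta1 minus control, of each of the 37 genes in the first set (left) and the second set (right), with bars for the standard error and filled points for an adjusted p under 0.05. On the left 9 chaperones are filled to the right of 0 and 3 genes of the ATF4 pathway to the left of it, with CEBPB filled to the right, and on the right none is filled.

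Several chaperones share a promoter sequence. The ER stress response element (ERSE), bound by NF-Y together with ATF6 or XBP1, was searched on both strands as CCAAT, any 9 bases and CCACG in RefSeq promoters of build GRCh38.p14, which run from 250 bases before to 50 bases after the gene start. It was found in 6 of the 14 chaperones with a promoter (HSPA5, HSP90B1, CALR, CRELD2, PDIA6 and CANX) and in XBP1, against 0.0916% of 27305 genes. Its variant ERSE-II, searched as ATTGG, any 1 base and CCACG, was found in HYOU1, SDF2L1 and HERPUD1, against 0.0696% of genes. None of the 12 genes of the ATF4 pathway held either. The element for ATF4 and its C/EBP partners, searched as TGATGNAA, was found in ASNS, CHAC1 and HERPUD1, against 4.46% of genes. A match describes letters only, and the elements searched were ones known for these pathways, so the counts are no test of them. PDIA3 was not matched. The following windows, read on the strand of the gene, show the element (capitals) with 20 bases on each side, since these genes rose in the first set, apart from CANX and ASNS, which did not pass.
HSPA5: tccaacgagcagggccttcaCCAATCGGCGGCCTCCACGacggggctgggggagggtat
HSP90B1: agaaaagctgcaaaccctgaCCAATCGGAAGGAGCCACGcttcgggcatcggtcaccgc
CALR: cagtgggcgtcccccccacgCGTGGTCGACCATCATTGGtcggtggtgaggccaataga
CRELD2: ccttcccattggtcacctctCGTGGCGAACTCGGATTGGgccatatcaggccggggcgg
HYOU1: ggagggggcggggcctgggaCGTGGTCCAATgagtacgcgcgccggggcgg
CANX: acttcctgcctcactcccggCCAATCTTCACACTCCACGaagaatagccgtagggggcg
ASNS: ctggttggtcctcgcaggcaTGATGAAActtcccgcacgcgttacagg
The windows lie at chr9:125241371-125241429 (HSPA5, minus strand), chr12:103930196-103930254 (HSP90B1, plus), chr19:12938364-12938422 (CALR, plus), chr22:49918534-49918592 (CRELD2, plus), chr11:119057254-119057304 (HYOU1, minus), chr5:179698758-179698816 (CANX, plus) and chr7:97872449-97872496 (ASNS, minus) in GRCh38.p14. In CALR, CRELD2 and HYOU1 the element reads on the opposite strand. HSPA5, with an element 66 to 48 bases before its start, rose in the first set, whereas CANX, which also holds one, did not pass. PDIA6, XBP1, SDF2L1 and HERPUD1, which hold ERSE or ERSE-II, did not pass there either. DNAJB9, DNAJC3 and PDIA4 rose there with neither element found. How the elements relate to the changes was not tested.

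Components of ER-associated degradation, which removes misfolded proteins from the ER, did not pass in either set (0 of 4). Among all genes tested, 20.9% (first set) and 0.321% (second set) passed, so a count over 4 genes says little. HERPUD1, a stress-induced adaptor of the degradation complex, averaged 13.3 ± 2.35 FPKM in TGFbeta1 libraries and 14.7 ± 2.17 FPKM in controls of the first set (SD, n = 3 each). SEL1L and the ubiquitin ligase SYVN1 (HRD1), which form its core, had log2 changes of 0.13 ± 0.099 and -0.19 ± 0.085 (SE). EDEM1, a lectin that marks misfolded glycoproteins, had 26.5, 8.63 and 7.05 FPKM in TGFbeta1 libraries and 14.1, 14.7 and 13.1 FPKM in controls of the first set. TGFbeta1 replicate 1 lay above every control and the other TGFbeta1 libraries below, so the adjusted p of EDEM1 was 0.782 with that library and 0.0215 without it (log2 change -0.76). EDEM1 in the second set averaged 14.7 ± 0.802 FPKM in the libraries labelled TGFbeta1 and 14.1 ± 0.587 FPKM in controls (SD, n = 3 each).

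The sensors and their factors did not pass in either set (0 of 5 and 0 of 4). The shares of all genes tested that passed were 20.9% and 0.321%, so these counts over few genes say little. ERN1 averaged 1.81 ± 0.0622 FPKM in TGFbeta1 libraries and 2.14 ± 0.117 FPKM in controls of the first set (SD, n = 3 each), with groups that did not overlap (adjusted p = 0.226). ATF6 averaged 10.99 ± 0.643 FPKM in TGFbeta1 libraries and 12.5 ± 0.912 FPKM in controls there (adjusted p = 0.219), and EIF2AK3 5.58 ± 0.268 FPKM in TGFbeta1 libraries and 4.60 ± 0.569 FPKM in controls (adjusted p = 0.167). WFS1, an ER membrane protein that restrains ATF6, averaged 2.52 ± 0.166 FPKM in TGFbeta1 libraries and 2.55 ± 0.143 FPKM in controls of the first set (SD, n = 3 each).

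XBP1 (hg19 chr22:29190543-29196585, minus strand) had 30.7, 34.9 and 29.9 FPKM in TGFbeta1 libraries and 24.9, 21.3 and 26.6 FPKM in controls of the first set. The groups did not overlap and XBP1 did not pass (log2 change 0.38 ± 0.111 SE, adjusted p = 0.0638). It passed under each of the 3 other scalings, with adjusted p between 0.032 and 0.045, and its change was 0.03 (adjusted p = 0.965) when only transcripts listed in both tables were summed. XBP1 in the second set had 16.5, 19.0 and 29.2 FPKM in the libraries labelled TGFbeta1 and 27.4, 29.6 and 18.3 FPKM in controls, with overlap. As background, active IRE1 cuts a short stretch of 26 bases out of XBP1 mRNA, which changes the reading frame and yields the strong activator XBP1s. The stretch is shown in capitals with 20 bases on each side, from the GENCODE v29 transcript, because transcripts with and without it are listed separately in both tables.
XBP1: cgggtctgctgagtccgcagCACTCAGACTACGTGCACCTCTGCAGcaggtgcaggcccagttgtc
The first table lists 5 XBP1 transcripts and the second 4, of which 2 lack the stretch in each. Their share of XBP1 FPKM was 49.1%, 3.38% and 31.6% in TGFbeta1 libraries and 11.99%, 7.82% and 12.5% in controls of the first set. The second-set share was 62.9%, 59.6% and 45.9% in the libraries labelled TGFbeta1 and 34.1%, 41.4% and 37.3% in controls. The groups overlapped in the first set through TGFbeta1 replicate 2 and did not overlap in the second. These shares were looked at after the gene's values had been seen and were not tested. The transcripts also differ elsewhere, so the shares are estimates by the authors' assignment of reads and no count of reads across the junction.

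**Figure D4:**
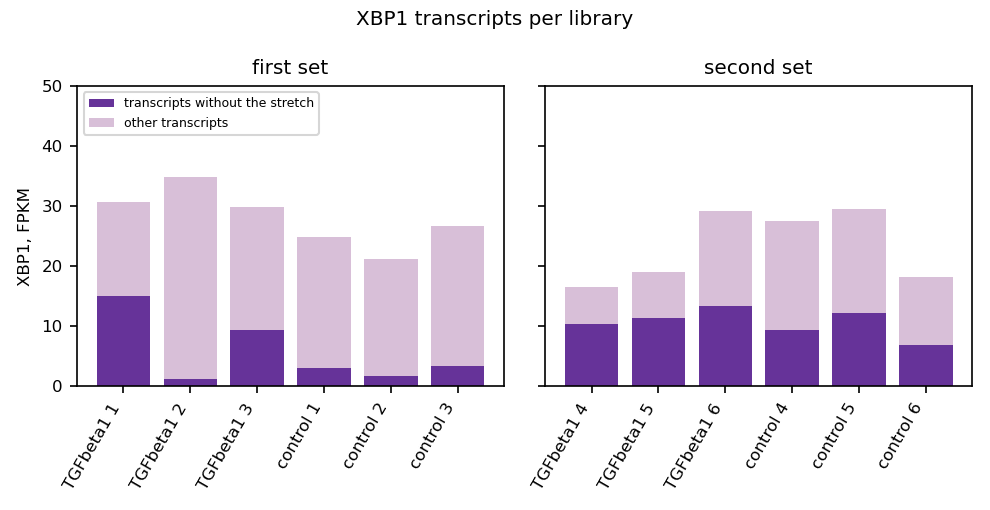
FPKM of XBP1 in each library, split into the 2 transcripts that lack the 26-base stretch (dark) and the other transcripts (light), with TGFbeta1 left of control in the first set (left) and the second set (right). The dark share is lowest, 3.38%, in TGFbeta1 replicate 2, and in the second set every library labelled TGFbeta1 has a larger dark share than every control.

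In the ATF4 pathway, 11 of the 12 genes had negative changes in the first set, as had 5891 of all 10454 genes tested. As lower, 3 of the 12 passed, where 11.9% of all genes tested did. That count was 1 without TGFbeta1 replicate 2, TGFbeta1 replicate 3 or control replicate 1, and 5 without TGFbeta1 replicate 1 or control replicate 3. ATF4 itself had 137, 175 and 175 FPKM in TGFbeta1 libraries and 207, 217 and 223 FPKM in controls. All TGFbeta1 libraries lay below all controls, and ATF4 did not pass (log2 change -0.42 ± 0.112 SE, adjusted p = 0.0512). ATF4 activity is set mostly by translation, which these data do not measure. For ATF4, second-set libraries labelled TGFbeta1 had 237, 244 and 318 FPKM and controls 231, 244 and 238 FPKM.

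DDIT3 (CHOP, hg19 chr12:57910371-57914300, minus strand), the transcription factor of stress-induced cell death, had 2.95, 3.46 and 3.29 FPKM in TGFbeta1 libraries and 11.5, 11.6 and 9.88 FPKM in controls of the first set. In the second set it had 21.3, 19.8 and 18.1 FPKM in the libraries labelled TGFbeta1 and 17.0, 17.4 and 18.1 FPKM in controls. The TGFbeta1 libraries were well below the controls in the first set. In the second, the libraries labelled TGFbeta1 were slightly above the controls, and the lowest of them and the highest control agreed to 3 digits. DDIT3 fell by 1.5 ± 0.097 on the log2 scale in the first set (SE, adjusted p = 0.000506), to 0.294 of the control mean in FPKM. Its change in the second set was 0.16 ± 0.076 (SE, adjusted p = 0.496), and the first-set change minus the second-set change was -1.66 ± 0.129 (SE, adjusted p = 1.98e-05). DDIT3 kept both calls with each library left out.

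PPP1R15A (GADD34), which directs a phosphatase to the translation factor that PERK phosphorylates, had 10.8, 10.7 and 10.6 FPKM in TGFbeta1 libraries and 14.7, 14.3 and 11.9 FPKM in controls of the first set. Values of PPP1R15A in the second set were 33.4, 37.4 and 33.1 FPKM in the libraries labelled TGFbeta1 and 31.8, 31.8 and 29.2 FPKM in controls. The groups were apart in both sets, in opposite directions, and neither change passed (adjusted p = 0.0698 and 0.492). The difference between the sets passed (-0.48 ± 0.127 SE, adjusted p = 0.0323). That call was lost under each of the other scalings (adjusted p up to 0.147). It was also lost with 9 of the 12 libraries when left out singly (adjusted p up to 0.0736). CEBPB, a bZIP factor that pairs with ATF4, was the gene of the pathway that rose. It had 92.3, 93.5 and 87.9 FPKM in TGFbeta1 libraries and 73.4, 80.3 and 73.5 FPKM in controls of the first set (log2 change 0.27 ± 0.064 SE, adjusted p = 0.0383). That call was lost when any library other than control replicate 2 was left out, with adjusted p between 0.0661 and 0.117, and in limma without trend (0.0585). Second-set values of CEBPB were 101, 109 and 108 FPKM in the libraries labelled TGFbeta1 and 107, 113 and 110 FPKM in controls.

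SESN2, a sestrin that restrains mTORC1 when leucine is short, had 10.7, 9.96 and 8.43 FPKM in TGFbeta1 libraries and 18.9, 18.6 and 14.1 FPKM in controls of the first set. It fell by 0.76 ± 0.146 on the log2 scale (SE, adjusted p = 0.019), with groups that did not overlap. SESN2 in the second set had 9.29, 9.07 and 11.4 FPKM in the libraries labelled TGFbeta1 and 11.1, 10.0 and 10.2 FPKM in controls. CTH, the enzyme that makes cysteine from cystathionine, had 2.55, 1.93 and 1.08 FPKM in TGFbeta1 libraries and 7.47, 6.93 and 4.09 FPKM in controls of the first set, where it fell by 1.33 ± 0.280 on the log2 scale (SE, adjusted p = 0.0254). For CTH, second-set libraries labelled TGFbeta1 had 3.75, 2.98 and 3.43 FPKM and controls 2.34, 3.56 and 2.88 FPKM. Both first-set calls were lost without TGFbeta1 replicate 2 or 3 or control replicate 1 or 2, with adjusted p between 0.0552 and 0.0633 for SESN2 and between 0.0602 and 0.0793 for CTH.

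Other enzymes of amino acid supply were lower on average and did not pass. ASNS, which makes asparagine, had 66.0, 66.6 and 31.3 FPKM in TGFbeta1 libraries and 142, 148 and 62.8 FPKM in controls of the first set (adjusted p = 0.155). PHGDH, the first enzyme of serine synthesis, had 1.19, 1.07 and 0.247 FPKM in TGFbeta1 libraries and 4.25, 4.05 and 1.28 FPKM in controls (adjusted p = 0.105). In both genes replicate 3 was the lowest of its group in TGFbeta1 and in control libraries. PSAT1, the next enzyme of serine synthesis, had 86.7, 41.8 and 24.7 FPKM in TGFbeta1 libraries and 88.4, 87.8 and 105 FPKM in controls (adjusted p = 0.157). TGFbeta1 replicate 1 lay just below the controls, and without it PSAT1 fell by 1.51 on the log2 scale (adjusted p = 0.0244). PHGDH passed without control replicate 3 (-1.53, adjusted p = 0.0295). ASNS in the second set averaged 92.6 ± 7.60 FPKM in the libraries labelled TGFbeta1 and 85.7 ± 8.63 FPKM in controls, and PSAT1 114.0 ± 2.90 FPKM in the libraries labelled TGFbeta1 and 124.4 ± 9.03 FPKM in controls (SD, n = 3 each).

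TRIB3, CHAC1 and STC2 varied widely among the controls of the first set. TRIB3, a pseudokinase that inhibits ATF4 and AKT, had 41.3, 45.0 and 38.3 FPKM in TGFbeta1 libraries and 27.1, 69.5 and 44.6 FPKM in controls (adjusted p = 0.891). CHAC1, which degrades glutathione, had 4.88, 3.60 and 3.25 FPKM in TGFbeta1 libraries and 14.7, 3.15 and 4.16 FPKM in controls (adjusted p = 0.527). STC2, a secreted glycoprotein, had 11.7, 11.8 and 8.65 FPKM in TGFbeta1 libraries and 37.8, 8.45 and 27.6 FPKM in controls (adjusted p = 0.285, but 0.0157 without control replicate 2). In each of these genes 1 or 2 controls lay far from the rest while the TGFbeta1 libraries lay close together. All TGFbeta1 libraries of the first set lay below all controls for 7 of the 12 ATF4 pathway genes, as they did for 25.1% of all genes tested. In the second set 11 were tested. The libraries labelled TGFbeta1 lay above all controls for 4 (9.71% of all genes tested) and below them for 0 (9.62%). The 4 were DDIT3, TRIB3, PPP1R15A and STC2, none of which passed there.

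Set side by side, the chaperones and the ATF4 pathway had medians on opposite sides of 0 in the TGFbeta1 libraries of the first set. The median log2 value relative to the control mean was 0.44, 0.38 and 0.48 over the 15 chaperones in the TGFbeta1 libraries and -0.03, -0.03 and 0.06 in the controls. Over the 12 genes of the ATF4 pathway it was -0.64, -0.72 and -1.06 in the TGFbeta1 libraries and 0.12, 0.08 and -0.16 in the controls. Each TGFbeta1 library thus had a higher chaperone median and a lower ATF4 pathway median than each control. Second-set medians were 0.08, 0.06 and 0.03 for the chaperones in the libraries labelled TGFbeta1 and -0.02, 0.03 and 0.01 in controls, and for 11 genes of the ATF4 pathway 0.08, 0.10 and 0.10 in the libraries labelled TGFbeta1 and 0.03, 0.04 and -0.07 in controls. For the difference between the sets, 5 chaperones passed as higher in the first set (HSP90B1, PDIA3, PDIA4, CALR and DNAJC3), where 6.04% of all genes did. In the ATF4 pathway 4 genes passed as lower in the first set (DDIT3, CTH, SESN2 and PPP1R15A), where 7.54% of all genes did, and CEBPB passed as higher.

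**Figure D5:**
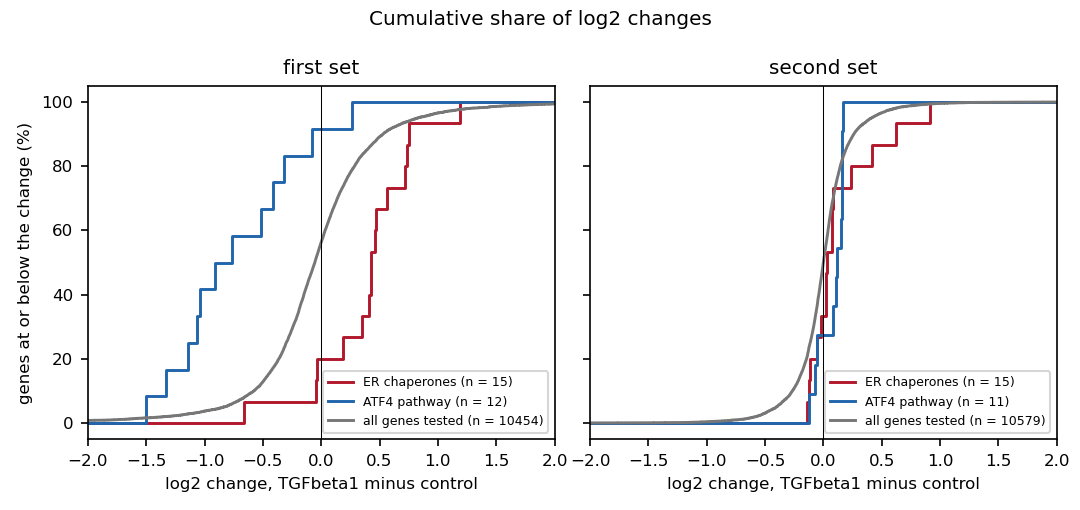
Cumulative share of genes (percent) at or below each fitted log2 change, TGFbeta1 minus control, for the ER chaperones, the ATF4 pathway and all genes tested, in the first set (left) and the second set (right). In the first set the chaperone curve lies to the right of all genes (median 0.43) and the ATF4 curve to the left (median -0.84), and in the second set all medians lie between -0.00 and 0.12.

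Genes of the same pathways outside the 37 were taken from lists of general knowledge. These lists were chosen with earlier results of these data known, so their counts are no independent check of the 37. Of 28 other folding factors tested in the first set, 7 rose and 0 fell, with a median log2 change of 0.23, where 9.00% of all genes tested rose and 11.9% fell. These were CALU, PDIA5, FKBP10, PPIB, GANAB, LMAN1 and SERPINH1, the collagen chaperone HSP47. CALU (calumenin), a calcium-binding protein of the secretory pathway, had 54.4, 54.9 and 55.2 FPKM in TGFbeta1 libraries and 30.8, 31.4 and 32.4 FPKM in controls (adjusted p = 0.000692). Of 40 other genes of the ATF4 pathway, 1 rose and 6 fell, counts to be read against the same shares of all genes tested (9.00% and 11.9%). Their median log2 change was -0.50 and 37 had negative changes, as had 5891 of all 10454 genes tested. Those that fell were SLC7A5, SLC3A2, SLC38A2, DDIT4, WARS and ALDH18A1, and KLHL24 rose. SLC7A5 and SLC3A2 are the chains of the LAT1 amino acid transporter. SLC7A5 had 49.5, 45.8 and 34.3 FPKM in TGFbeta1 libraries and 103, 443 and 303 FPKM in controls (log2 change -2.46 ± 0.546 SE, adjusted p = 0.0295), with controls spread more widely than the TGFbeta1 libraries. SLC3A2 had 110, 114 and 84.1 FPKM in TGFbeta1 libraries and 203, 174 and 144 FPKM in controls (log2 change -0.75 ± 0.172 SE, adjusted p = 0.0327). Left out singly, 5 of the 6 libraries ended each of these calls, with adjusted p up to 0.0885 for SLC7A5 and 0.0898 for SLC3A2. The equal-sum scaling and quantile normalisation also ended that of SLC3A2 (0.0549 and 0.0606).

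In the remaining lists 6 genes passed in the first set, and no list's share exceeded the 20.9% of all genes tested. Of 22 other degradation genes, SELENOS rose (17.1 ± 2.06 FPKM in TGFbeta1 libraries and 9.78 ± 0.721 FPKM in controls, SD, n = 3 each, adjusted p = 0.00771) and NGLY1 fell. Of 18 other regulators, 1 rose and 2 fell. CREB3L2, a membrane-bound transcription factor that raises secretory pathway genes, averaged 12.7 ± 0.655 FPKM in TGFbeta1 libraries and 7.98 ± 0.207 FPKM in controls (SD, n = 3 each, adjusted p = 0.00374). MAP3K5 (ASK1), a stress kinase downstream of IRE1, averaged 3.55 ± 0.455 FPKM in TGFbeta1 libraries and 7.89 ± 0.819 FPKM in controls (SD, n = 3 each, adjusted p = 0.00404), and EIF2S1 also fell. Of 15 other translocation genes, SRPRB fell.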

How the data were processed

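RNA of 12 MCF-12A libraries was extracted with Trizol, per the labels' protocols. HISAT2 2.0.4 and StringTie 1.2.3, together with FastQC, cutadapt and build hg19, are listed in the submitters' processing notes. Tool settings, strandedness and the annotation are not stated in the sources used here. Overlapping or antisense genes and pseudogene copies, such as those of HSPA5, HSP90B1 and PSAT1, could therefore share reads. The authors deposited FPKM per protein-coding transcript in 2 tables. The first names no unit, so FPKM is inferred from its values there. The second table also holds the authors' log2 fold change of FPKM + 1, p-values and q-values per transcript, which are used only where their table is named. The lowest mean FPKM listed was 0.025 in the first table and 0.25 in the second, so the tables were filtered differently and every change was taken within a set.

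Transcripts were summed per symbol, with 196 symbols of the first table renamed to match the second through transcript identifiers. Genes with a mean of at least 1 FPKM were tested with limma 3.58.1 (R 4.3.3) on log2(FPKM + 1), with empirical Bayes, a trend, Benjamini-Hochberg adjustment over all genes tested and a threshold of 0.05, two-sided. The fits were TGFbeta1 against control in each set, and the interaction of set and agent over all libraries. Alternatives were another pseudocount (0.1), no filter, a 5 FPKM minimum, 3 other scalings, limma without trend or with robust variance, transcripts in both tables, the replicate number as a block, and leaving out each library. With a library left out, the spread was pooled over both groups. The fits were tested on simulated data. Members and lists were chosen with earlier results of these data known. Named genes were all members, the 3 largest calls in each direction and set among other pathway genes, and the genes of the label check, of which some are not reported here. Others are named because their count was small. The motifs and the XBP1 stretch were chosen after values had been seen. Python 3.11.15, numpy 2.4.6, pandas 2.3.3 and matplotlib 3.10.9 were used otherwise.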

Additional observations from a re-analysis of the deposited data

Results flagged for a closer look

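The change differed between the sets, by the interaction term of the limma fit over all 12 libraries, for 10 of the 37 genes. Of all 10571 genes tested, 13.6% differed, 6.04% as higher in the first set and 7.54% as lower. The values are the first-set log2 change minus the second-set log2 change. Among chaperones it was 0.861 for CALR, 0.733 for HSP90B1, 0.698 for PDIA3, 0.63 for PDIA4 and 0.426 for DNAJC3. In the ATF4 pathway it was -1.662 for DDIT3, -1.497 for CTH, -0.686 for SESN2, -0.479 for PPP1R15A and 0.326 for CEBPB. For HSP90B1, PDIA3, PDIA4, CALR, DDIT3 and CTH the difference passed under every alternative that gave a value and with each library left out. The differences of DNAJC3, SESN2, PPP1R15A and CEBPB were lost with several single libraries left out, and those of SESN2 and PPP1R15A also under each of the 3 other scalings. The sets were normalised separately and differ in their markers, and anything else that differed between the sets cannot be told apart from the set.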

How the results depend on the processing

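Of the 37 genes, 13 passed in the first set, and leaving out 1 library gave 6 (without control replicate 1) to 14, with 8 without TGFbeta1 replicate 3. For the difference between the sets, 10 passed, and the leave-one-out counts ran from 6 (without control replicate 5 or 6) to 11. Among all genes, 2186 passed in the first set and 1354 to 2030 with 1 library left out. The all-gene counts for the difference between the sets were 1436 and 1204 to 1502. In the second set 34 passed, 17 with an equal sum, 20 without trend, and 0 to 23 with 1 library left out, 0 of them without control replicate 4. The chaperone median of the first set, 0.429, was 0.514 with an equal sum, 0.517 with quantile normalisation and 0.401 to 0.483 with 1 library left out. The ATF4 pathway median, -0.836, ran from -0.902 to -0.594 (without control replicate 1). In the second set the chaperone median ran from 0.03 to 0.101 and the ATF4 pathway median from 0.07 to 0.159, being 0.14 with a pseudocount of 0.1, 0.135 without a filter, 0.094 with an equal sum and 0.13 with quantile normalisation. None of the 37 genes passed in the second set under any alternative, and no called change turned its direction. The cause of these shifts was not tested.

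The equal-sum scaling turned the share of higher among all first-set calls to 57.7%, against 43.0% as deposited. For the difference between the sets it gave 772 higher and 522 lower, against 639 and 797.

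Replicate numbers were not taken to pair the libraries in the main fits. The deviations of same-numbered TGFbeta1 and control libraries from their group means correlated at 0.007 to 0.046 over genes. Those of differently numbered libraries correlated at -0.053 to 0.014. These low values over all genes do not exclude a pairing. With the replicate number as a block, 1211 genes passed in the first set and 0 in the other. Of the 37 genes, 12 passed in the first set (7 higher, 5 lower) and 0 in the other. The block added calls for PDIA6 (adjusted p = 0.0349), ASNS (0.012) and PHGDH (0.028), and those of DNAJC3 (0.053), DNAJB9 (0.0742), HYOU1 (0.0712) and CEBPB (0.0805) were lost. For the difference between the sets 10 of the 37 passed, as did 1112 of all genes tested.

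The labels do not establish separate cultures, the depth of each library is unknown, and 3 libraries a group limit what can pass.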
